A study of Mus musculus with 12 samples.

Results

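The regions described here are the H4K20me3 domains that lie nearest to the centromeres of mouse chromosomes 1 to 19. They were chosen by position, as the domains of the deposited list with a start between 3 and 8 Mb of an autosome, which is the first 5 Mb of sequence after the 3 Mb that the mm10 build leaves unsequenced. The rule took 1548 of the 28210 domains of the list, or 6.02% of the 25734 domains on autosomes. They are set against the 24182 domains that start at or after 8 Mb on the same chromosomes.

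The study followed H4K20me3 by chromatin immunoprecipitation and sequencing in the mouse embryonic stem cell line dTKO at 0, 12, 24 and 48 h of combined treatment, with 3 replicates at each time and 12 libraries in all. The treatment combined 0.5 μM dTAG13 and 100 μg/ml auxin, ligands that trigger degradation of proteins carrying matching degron tags. All 4 groups carry the genotype Suv39h1fl/fl ; Suv39h2-/- ; Setdb1fl/fl, so the Suv39h2 deletion is shared by the baseline, and all come from 1 line. Per the series description, H3K9 methyltransferases are removed during the course and the loss of the mark is followed. The list holds positions only and names no library or time, so the domains could not be compared between times, and no depth, signal or replicate error stands behind a domain. No expression value was used here by which the labelled cell type could be checked.

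H4K20me3 is the trimethyl form of lysine 20 on histone H4. It is laid down mainly by KMT5C, also called SUV4-20H2, which is brought to chromatin by HP1 proteins bound to methylated H3K9. In mouse cells the mark is known from the satellite repeats around centromeres, from telomeres and from silenced retrotransposons. Mouse autosomes have their centromere at one tip, so the first assembled bases of each chromosome lie next to the centromeric satellite arrays, which the assembly does not hold.

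Few genes of these regions had a listed transcription start inside a domain. In a RefSeq table of GRCm38.p6, 27 of the 1270 listed starts in the first 5 Mb lay inside a domain (2.13%). In the rest of the autosomes, 481 of 30126 starts did (1.60%). The listing is uneven, with 6, 6, 13 and 0 starts in the first 5 Mb of chromosomes 1, 3, 4 and 18. The first 5 Mb of those chromosomes hold 145, 150, 112 and 93 domains. Chromosomes 14 and 19, with 9 and 26 domains there, have 156 and 202 listed starts. The 2.13% thus says little about chromosomes 1, 3, 4 and 18. The 27 starts belonged to 25 of the 1002 genes with a listed start in these regions. Of the 25 genes, 9 were protein-coding, out of 694 protein-coding genes with a listed start, and 16 were lncRNA genes. The same split for the rest of the autosomes is not given here. The 250 bases before the start are shown for 5 of the protein-coding genes, chosen to span the range of CpG content among them, with each CCAAT pentamer, or ATTGG where it lies on the other strand, in capitals. Tasor2 is a paralogue of the HUSH silencing complex gene Tasor, Gstp2 is a pi-class glutathione S-transferase, Akr1e1 is an aldo-keto reductase, Cd209c is a C-type lectin and Hmox2 is the constitutive heme oxygenase.
Tasor2 (minus strand, chr13:3611109-3611358): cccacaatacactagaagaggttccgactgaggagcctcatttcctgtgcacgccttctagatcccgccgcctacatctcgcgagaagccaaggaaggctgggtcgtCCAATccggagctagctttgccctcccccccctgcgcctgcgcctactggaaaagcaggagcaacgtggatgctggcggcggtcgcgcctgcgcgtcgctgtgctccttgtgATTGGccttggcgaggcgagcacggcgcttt
Gstp2 (minus strand, chr19:4042222-4042471): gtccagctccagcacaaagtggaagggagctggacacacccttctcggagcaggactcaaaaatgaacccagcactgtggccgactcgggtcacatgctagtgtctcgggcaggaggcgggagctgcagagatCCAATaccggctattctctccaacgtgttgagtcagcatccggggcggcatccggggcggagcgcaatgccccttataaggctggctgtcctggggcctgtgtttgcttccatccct
Akr1e1 (minus strand, chr13:4609165-4609414): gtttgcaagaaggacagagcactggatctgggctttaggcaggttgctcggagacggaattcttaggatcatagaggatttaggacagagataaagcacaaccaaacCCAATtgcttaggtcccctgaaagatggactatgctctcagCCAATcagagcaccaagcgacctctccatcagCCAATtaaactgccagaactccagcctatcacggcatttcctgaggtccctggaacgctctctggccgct
Cd209c (minus strand, chr8:3946864-3947113): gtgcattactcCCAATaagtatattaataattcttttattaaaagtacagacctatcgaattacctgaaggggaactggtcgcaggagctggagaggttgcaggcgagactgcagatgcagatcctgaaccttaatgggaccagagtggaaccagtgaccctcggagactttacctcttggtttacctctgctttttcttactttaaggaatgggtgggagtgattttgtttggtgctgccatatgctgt
Hmox2 (plus strand, chr16:4741363-4741612): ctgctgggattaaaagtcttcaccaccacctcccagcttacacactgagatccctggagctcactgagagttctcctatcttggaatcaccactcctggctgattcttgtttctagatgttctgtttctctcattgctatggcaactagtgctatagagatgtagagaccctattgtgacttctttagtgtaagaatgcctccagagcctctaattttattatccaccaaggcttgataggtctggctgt

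These 5 sequences hold 22, 12, 6, 4 and 0 CpG dinucleotides in the order shown, and 2, 1, 3, 1 and 0 copies of the capitalised pentamer. The Tasor2 start lay 0.457 kb inside a domain of 16.65 kb that runs on upstream of the gene, and 4.77% of the gene body was covered. The Gstp2 start lay in a domain of 5.85 kb that covered 94.2% of its 1.934 kb gene body. The Akr1e1 start lay in a domain of 1.05 kb, 0.186 kb from its edge. Cd209c had its listed start 2.012 kb inside a domain of 8.85 kb. For Hmox2, 1 of 3 listed starts lay in a domain, which was 14.25 kb wide. The other protein-coding genes with a start in a domain included Gm40595, covered over 100% of its 2.714 kb, the inhibitory collagen receptor Lair1 at 23.5%, and the NKG2D ligand Ulbp1 at 14.7%.

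Over windows from 250 bases before to 50 after the start, the 27 starts inside domains had a median of 6 CpG dinucleotides (range 0 to 39) and a median GC content of 49.3%. The other 1243 starts of the same regions had medians of 8 CpG dinucleotides and 53.7% GC. The highest value, 39, was that of Rab10os, an antisense lncRNA of chromosome 12 named here after its value was seen. A CCAAT pentamer on either strand was found in 18 of the 27 windows (66.7%), against 37.4% of the other starts in the first 5 Mb, 44.5% of the 481 starts inside domains elsewhere on the autosomes, and 37.4% of all 32851 starts of the table. The GC box GGGCGG, on either strand, was found in 25.9% of the 27 windows, 38.4% of the other starts in the first 5 Mb, 18.9% of starts inside domains elsewhere and 35.7% of all starts. TATAAA was found in 11.1%, 11.7%, 15.2% and 13.6% of the same 4 sets, and the E-box CACGTG in 11.1%, 7.96%, 4.99% and 7.15%. The motif TCCCGC, the core of sites bound by E2F6, was found in 14.8%, 21.5%, 11.4% and 20.0% of them. The windows of Eps8l1 and 4930481A15Rik share a long, nearly identical stretch that holds both ATTGG and GGGCGG. Those of Gm13391 and Gm33462 share another, shorter stretch, so the 27 windows are not all separate sequences. The 27 starts are few, the 3 starts of Gm33539 share 1 domain, and the windows of 4930433N12Rik and Gm31138 overlap. These shares are therefore descriptions of the letters and not of bound sites. The table lists starts for 694 of the 869 protein-coding genes of these regions.

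The miR-290 cluster of chromosome 7, the microRNA cluster most typical of mouse embryonic stem cells, lies in the first 5 Mb and met no domain. Its 9 hairpins give 17 mature forms in the RefSeq table. The nearest domain on the left was 84.1 kb away and the nearest on the right 17.8 kb away, each 0.75 kb wide, and the right one lies in the body of Nlrp12. Shown are 3 mature forms that share a seed, with the seed at bases 2 to 8 in capitals.
mmu-miR-291a-3p: aAAGUGCUuccacuuugugugc
mmu-miR-294-3p: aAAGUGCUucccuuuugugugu
mmu-miR-295-3p: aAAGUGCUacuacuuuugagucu

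None of the 34 hairpins that the sequence table places in the first 5 Mb met a domain, against 11 of 885 (1.24%) in the rest of the autosomes. The closest was 14.3 kb from a domain and the median distance was 42.9 kb. The 34 leave out Mir291a of the miR-290 cluster, whose mature forms lay 19.7 kb from the nearest domain. The gene table places 39 microRNA genes there, and 1 of them (2.56%), Mir3471-2 on chromosome 4, lay in a domain. Among its microRNA genes in the rest of the autosomes, 11 of 1097 (1.00%) met a domain. Over all autosomes, 12 of 1136 (1.06%) did.

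The first 5 Mb held more domains, set closer together, than the rest of the autosomes. In total 7.21 Mb of the 95 Mb in these regions lay in domains, or 7.59%, against 94.7 Mb of 2308 Mb, or 4.1%, in the rest. Averaged over chromosomes, domains took 7.59 ± 4.45% of bases in the first 5 Mb and 4.02 ± 0.891% in the rest (SD, n = 19 chromosomes). The difference was 3.57 ± 4.25 percentage points, with the first 5 Mb higher on 15 chromosomes and lower on 4 (exact paired permutation test over chromosomes, two-sided p = 0.00232, adjusted p = 0.0116 over 5 measures). Domain density was 16.3 ± 8.40 per Mb in the first 5 Mb and 10.3 ± 1.62 per Mb in the rest, and was higher in the first 5 Mb on 14 of 19 chromosomes (exact paired permutation test, p = 0.00523, adjusted p = 0.0131). Chromosomes are the repeated units of these tests, and all come from 1 list, so the p-values measure the spread among chromosomes and not the error between replicates. Against the next 5 Mb, from 8 to 13 Mb, the difference in coverage was 1.46 percentage points and did not pass the threshold of 0.05 (exact paired permutation test, p = 0.116, adjusted p = 0.144). The density difference against the same 5 Mb was 1.79 per Mb (exact paired permutation test, p = 0.327, adjusted p = 0.409).

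**Figure D1:**
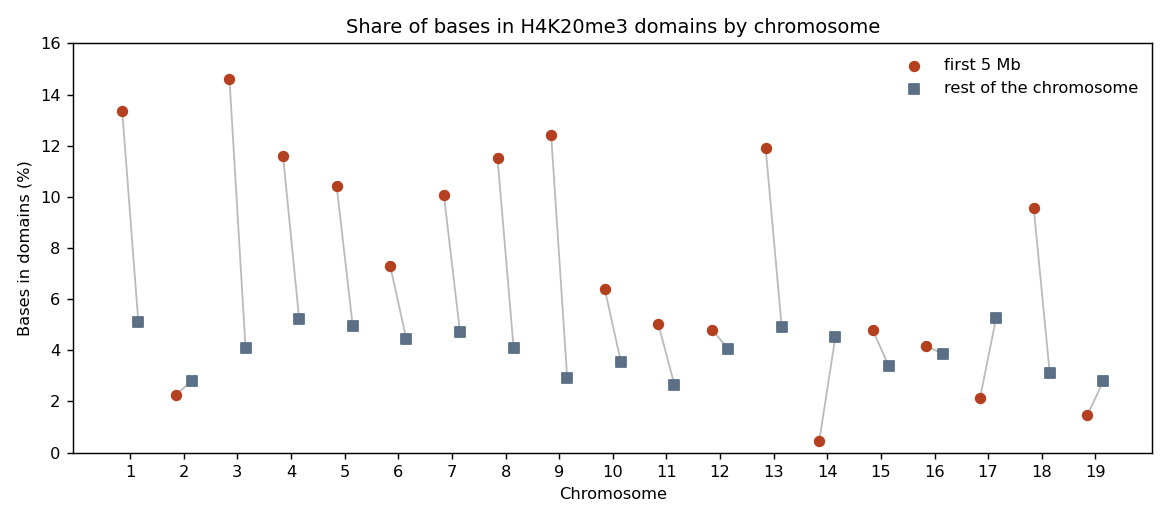
Share of bases in H4K20me3 domains on the y axis, in percent, for each of chromosomes 1 to 19 on the x axis. Red circles are the first 5 Mb and blue squares the rest of the same chromosome, joined by a line. The first 5 Mb reached 14.6% on chromosome 3 and 0.447% on chromosome 14, while the rest stayed between 2.65% and 5.27%.

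Coverage of the first 5 Mb ran from 0.447 to 14.6% over the chromosomes, against 1.82 to 11.1% in the next 5 Mb, a stretch of the same length. Chromosomes 3, 1, 9, 13, 4, 8, 5 and 7 had 14.6, 13.4, 12.4, 11.9, 11.6, 11.5, 10.4 and 10.1% of their first 5 Mb in domains. These are the 8 chromosomes above 10%, and their rests lay between 2.90% and 5.22%. Chromosomes 18, 6, 10, 11, 12, 15 and 16 followed with 9.57, 7.28, 6.39, 5.01, 4.81, 4.78 and 4.17%, each above its own rest. Chromosomes 2, 17, 19 and 14 had 2.26, 2.14, 1.46 and 0.447% in the first 5 Mb, against 2.82, 5.27, 2.81 and 4.51% in their rests. The first 5 Mb had at least 2 times the coverage of the rest on 9 chromosomes, with the highest ratio, 4.27, on chromosome 9. Among all 5 Mb windows of the same chromosome, the first ranked highest on 9 chromosomes (1, 3, 5, 7, 8, 9, 10, 13 and 18) and among the top 3 on 11. On chromosome 14 it ranked last of 24 windows, and on chromosome 17 it ranked 17th of 18.

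**Figure D2:**
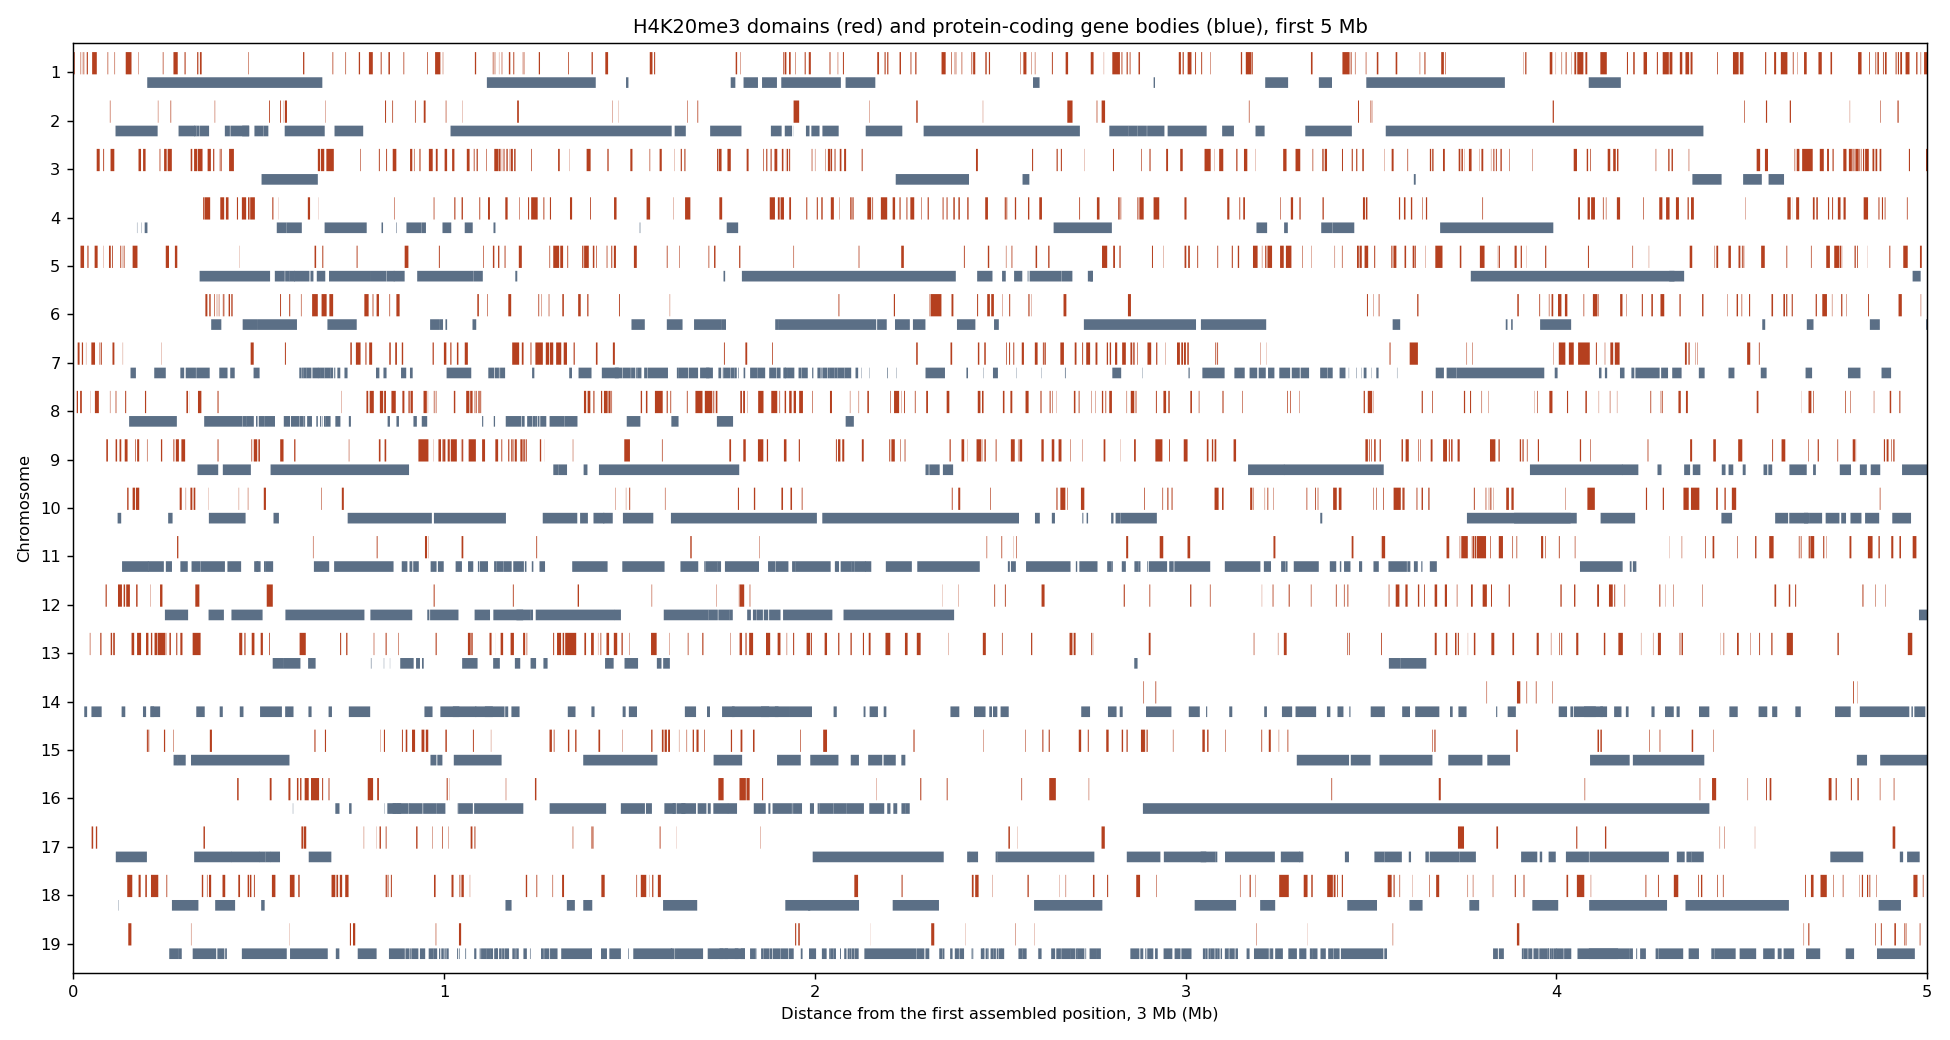
H4K20me3 domains (red) and protein-coding gene bodies (blue) in the first 5 Mb of chromosomes 1 to 19, drawn to scale, with distance from the 3 Mb position in Mb on the x axis and 1 row per chromosome. Domains are dense on chromosomes 1 and 3, with 145 and 150 of them, and chromosome 14 has 9.

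Domains of the first 5 Mb had a median width of 3.3 kb (quartiles 1.95 and 5.85 kb, range 0.15 to 31.5 kb). In the rest of the autosomes the median was 2.85 kb (quartiles 1.65 and 4.5 kb, up to 148.35 kb). Domains of 10 kb or more made up 10.5% of the first 5 Mb's domains (162 of 1548) and 32.2% of their bases, against 6.36% of domains (1538 of 24182) and 24.0% of bases in the rest. Averaged over chromosomes, the median width was 3.06 ± 0.656 kb in the first 5 Mb and 2.83 ± 0.152 kb in the rest (SD, n = 19 chromosomes), a difference that did not pass the test (exact paired permutation test, p = 0.111, adjusted p = 0.139). Without chromosome 14, whose median rests on 9 domains, the width difference was 0.3125 kb (exact paired permutation test, p = 0.0197, adjusted p = 0.0265). Gaps between neighbouring domains had a median of 23.55 kb in the first 5 Mb and 41.85 kb in the rest. Gaps under 5 kb made up 14.7% of all gaps in the first 5 Mb and 8.86% in the rest.

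Along the first 5 Mb, mean coverage over the 19 chromosomes was 8.24, 7.97, 6.78, 6.71 and 8.24% in consecutive bins of 1 Mb, with no steady fall away from the centromere. It was 7.13% from 8 to 9 Mb and 4.95% from 9 to 10 Mb. In the bins from 10 to 23 Mb it lay between 5.33% and 9.08%, above the 4.02% of the rest as a whole. Of the 95 bins of 1 Mb in these regions, 33 had more than 10% of their bases in domains and 2 had no domain. The 33 bins held a median of 3 protein-coding genes, against 7.5 in the other bins.

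**Figure D3:**
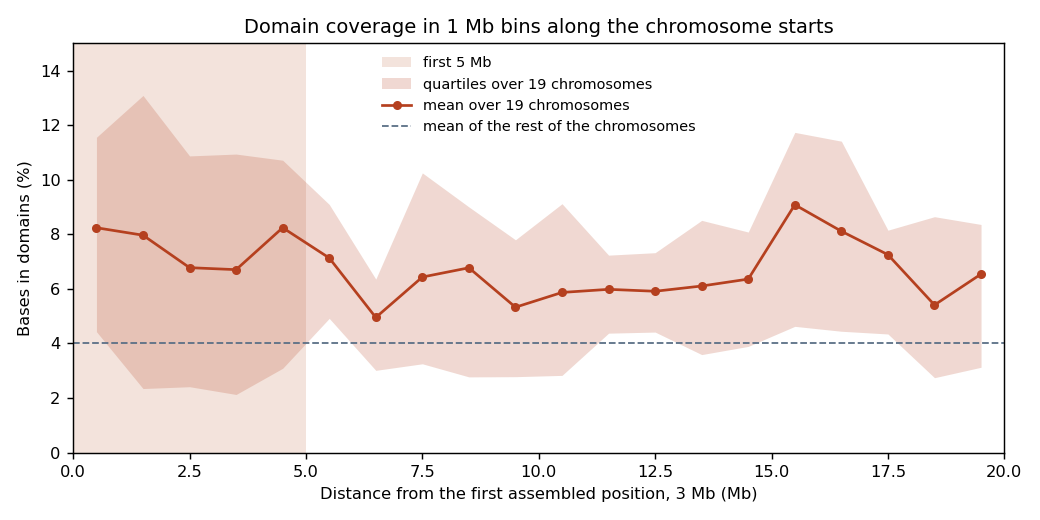
Mean share of bases in domains (red line, percent) in 1 Mb bins over the first 20 Mb of assembled sequence, with the quartiles over 19 chromosomes as a band and the mean of the rest of the chromosomes, 4.02%, as a dashed line. The x axis is distance from the 3 Mb position in Mb and the first 5 Mb are shaded. Means in the shaded bins lie between 6.71% and 8.24%.

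The fullest bin of 1 Mb, from 7 to 8 Mb of chromosome 1, had 25.0% of its bases in domains and held a single protein-coding gene, the protein repair methyltransferase-like gene Pcmtd1. The bin from 4 to 5 Mb of chromosome 8 had 21.9% and 15 protein-coding genes, Cd209 family lectin genes among them. On chromosome 13, the bin from 4 to 5 Mb had 20.1% and 9 protein-coding genes. The bin from 3 to 4 Mb of chromosome 3 had 18.6% and held Hnf4g, a nuclear receptor gene. That from 7 to 8 Mb of chromosome 3 had 18.3% and 3 protein-coding genes. The bin from 6 to 7 Mb of chromosome 5 had 17.6% and held the zinc finger gene Zfp804b. These bins were picked for their values, which are given as a description.

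When domains under 5 kb apart were joined, the 1548 domains formed 1324 runs, of which 1146 were single domains. A pair of runs spanned more than 40 kb. The longer, 53.7 kb with 8 domains on chromosome 3 (chr3:7788601-7842300), lay between Il7, the gene of the lymphoid cytokine interleukin 7, 174.8 kb to its left, and Stmn2, a neuronal microtubule regulator, 667.2 kb to its right. The other, 51.75 kb with 3 domains on chromosome 13 (chr13:4304851-4356600), lay between the aldo-keto reductase genes Akr1c12 and Akr1c6.

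The widest domain of the first 5 Mb met no protein-coding gene on 18 of 19 chromosomes. That is near the share over all 1548 domains, of which 222 (14.3%) met a protein-coding gene. The widest of all was 31.5 kb on chromosome 7 (chr7:7058401-7089900), over the pseudogene Pafah1b1-ps2, 55.3 kb from the meiotic kinase gene Aurkc and 24.8 kb from the zinc finger gene Zfp954. On chromosome 13 it was 29.7 kb wide, 47.5 kb from Akr1c12 and 77.7 kb from Akr1c6. On chromosome 6 it was 28.95 kb wide, between the paraoxonase gene Pon2 at 14.2 kb and Asb4 at 41.9 kb. On chromosome 3 it was 28.5 kb wide, 48.8 kb from Il7 and 818.4 kb from Stmn2. On chromosome 9 it was 27 kb wide, 25.3 kb from Gucy1a2 and 336.7 kb from Aasdhppt. The exception was chromosome 17, where a domain of 16.35 kb (chr17:6734401-6750750) met both Sytl3, a vesicle trafficking gene, and Ezr, which encodes the membrane-cytoskeleton linker ezrin and had 28.3% of its body covered. The narrowest of these widest domains were 9 kb on chromosome 14 and 8.4 kb on chromosome 19.

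The widest domains of the other chromosomes measured from 10.8 kb on chromosome 15, between Ptger4 and Dab2, to 25.95 kb on chromosome 18, between Kif5b and Epc1. The flanking genes were Oprk1 and Npbwr1 on chromosome 1, Gm13194 and Ucma on chromosome 2, Penk and Gm11780 on chromosome 4, Gm46900 and Zfp804b on chromosome 5, and Cers4 and Zfp958 on chromosome 8. They were Cnksr3 and Ulbp1 on chromosome 10, Ramp3 and Adcy1 on chromosome 11, Asxl2 and Dtnb on chromosome 12, and Olfr161 and Mefv on chromosome 16. Oprk1 encodes the kappa opioid receptor and Penk proenkephalin. The distances of these neighbours ran from 0.251 kb for Gm13194 to 923.2 kb for Gm46900.

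Most domains of the first 5 Mb lay outside annotated genes. Of the 1548, 1143 (73.8%) met no protein-coding, lncRNA or pseudogene annotation, 222 (14.3%) met a protein-coding gene, 121 (7.82%) met a lncRNA gene without one, and 62 (4.01%) met pseudogenes only. In the rest of the autosomes the shares were 68.2, 21.0, 7.70 and 3.09%. Of the 222, 205 lay wholly within a gene body and 17 crossed a gene's edge. Domains outside protein-coding genes lay a median of 103.5 kb from the nearest one in the first 5 Mb, against 95.7 kb in the rest.

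Coverage inside and outside gene bodies was set apart. Outside protein-coding genes, coverage was 10.2 ± 5.27% in the first 5 Mb and 5.58 ± 1.14% in the rest, higher in the first 5 Mb on 16 of 19 chromosomes (exact paired permutation test, p = 0.00167, adjusted p = 0.00334 over 2 measures). Inside gene bodies it was 2.35 ± 1.69% in the first 5 Mb and 1.79 ± 0.534% in the rest, higher on 11 and lower on 8 chromosomes, which did not pass the test (exact paired permutation test, p = 0.142, adjusted p = 0.142). This split was added after the data were seen, and the 2 differences were not tested against each other.

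Across the 19 chromosome starts, coverage was lower where protein-coding gene bodies took more of the sequence, with Pearson's r = -0.723 and Spearman's rho = -0.670. Without chromosome 14 these were -0.774 and -0.744, and without chromosomes 3 and 13, the 2 farthest from the median gene body share, -0.642 and -0.578. Against the number of protein-coding genes per Mb, r was -0.459 and rho -0.645. Against coverage in the rest of the same chromosome, r was 0.319 and rho 0.316. These are descriptions over 19 windows of 1 list, which share the libraries and the caller. Gene density itself was 9.15 ± 8.67 protein-coding genes per Mb in the first 5 Mb and 8.57 ± 2.36 in the rest, lower in the first 5 Mb on 14 chromosomes (exact paired permutation test, p = 0.810, adjusted p = 0.810). Chromosome 7 stood apart from the order, with 122 protein-coding genes and 10.1% coverage in its first 5 Mb.

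**Figure D4:**
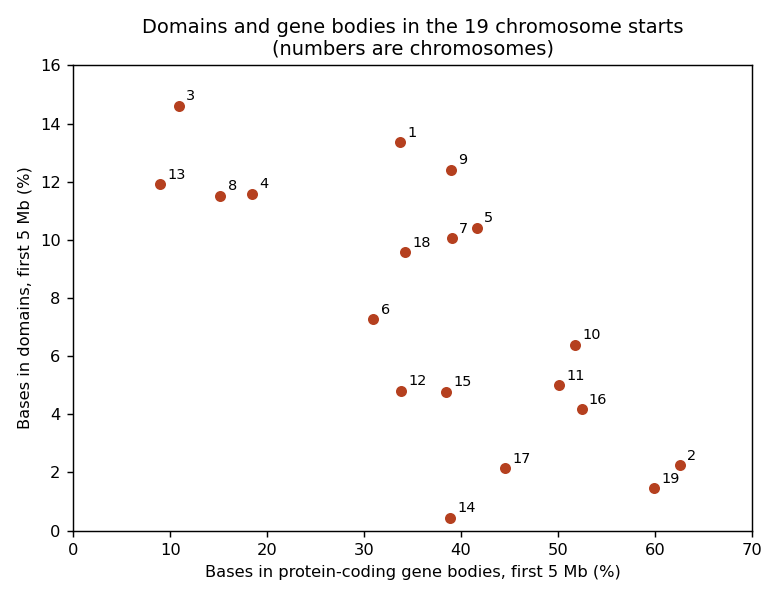
Share of bases in domains (y axis, percent) against share of bases in protein-coding gene bodies (x axis, percent) in the first 5 Mb of chromosomes 1 to 19, 1 point per chromosome, labelled by number. Chromosomes 3 and 13, with 10.9% and 8.99% in gene bodies, lie high at 14.6% and 11.9% in domains, and chromosomes 2 and 19, with 62.6% and 59.9% in gene bodies, lie low at 2.26% and 1.46%.

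Of the 869 protein-coding genes in the first 5 Mb, 121 shared at least 1 base with a domain (13.9%), against 2747 of 19691 (13.95%) in the rest and 13.9% over all autosomes. Averaged by chromosome, the share was 20.9 ± 12.0% in the first 5 Mb and 14.6 ± 3.33% in the rest, higher in the first 5 Mb on 14 of 19 chromosomes (exact paired permutation test, p = 0.0212, adjusted p = 0.0353). Chromosomes 19 and 14, which weigh most in the pooled count beside chromosomes 7 and 11, had 6 of 183 and 1 of 80 genes with a domain. The call of the averaged share did not hold when chromosome 1, 5, 6, 9, 10, 13, 15 or 18 was left out (adjusted p up to 0.0697), and its sign turned when at least 50% of the gene body had to be covered. It was also lost with a window of 3 to 6 Mb (adjusted p = 0.0966), with domains of at least 1.5 kb (adjusted p = 0.0674) and against the last 5 Mb of the chromosome (adjusted p = 0.686), all by the exact paired permutation test. Against the next 5 Mb, from 8 to 13 Mb, the direction turned and passed, with 20.9% of genes in the first 5 Mb and 31.3% in the next 5 Mb (exact paired permutation test, p = 0.0140, adjusted p = 0.0234). Long genes met domains most often. Of genes under 20 kb, 19 of 490 (3.88%) in the first 5 Mb met a domain, against 3.93% in the rest. For genes of 20 to 100 kb the shares were 17.2% in the first 5 Mb and 16.3% in the rest, and for genes over 100 kb 61.4% (51 of 83) and 54.0%.

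Noncoding genes met domains in a larger share in the first 5 Mb than elsewhere. Among lncRNA genes 97 of 436 (22.2%) met a domain, against 13.05% of 11888 in the rest and 13.4% over all autosomes. Among pseudogenes 67 of 485 (13.8%) did, against 9.16% of 8917 in the rest and 9.40% over all autosomes. At least 50% of the gene was covered for 13 of these lncRNA genes and 44 of the pseudogenes, against 3 of the protein-coding genes. The median gene lengths of these classes in the first 5 Mb were 9.141, 1.027 and 16.01 kb, in the same order. The counts at 50% were not matched for length, and those for the rest of the autosomes are not given here. All differences in this paragraph are pooled counts and were not tested.

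Of the 121 protein-coding genes with a domain, 83 met a single domain, 9 met 5 or more, and the median share of the body covered was 4.77%. The 10 with the most covered bases had from 18 to 34.5 kb in domains. Zfp804b on chromosome 5 had 34.5 kb in 10 domains, 6.0% of its 575.3 kb. Xkr4, of the XK membrane protein family, had 29.4 kb in 7 domains. Rgs20, a regulator of G-protein signalling, had 24.9 kb in 8 domains, 15.5% of its body, and Rp1, a photoreceptor microtubule protein gene, 24.15 kb in 11. Those 3 genes and St18, a Myt-family transcription factor gene with 21.9 kb in 7 domains, all lie in the first 5 Mb of chromosome 1. Oprm1, the mu opioid receptor gene of chromosome 10, had 24.0 kb in 8 domains. On chromosome 9, Gucy1a2, a soluble guanylate cyclase subunit gene, had 22.65 kb, Gria4, an AMPA-type glutamate receptor gene, 21.9 kb in only 3 domains, and the growth factor gene Pdgfd 18 kb. Sdhaf3, an assembly factor gene of succinate dehydrogenase on chromosome 6, had 21.9 kb in 4 domains, 26.2% of its body.

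By share of the body covered, Gm40595 at 100%, Gstp2 at 94.2% and Cd209c at 60.3% came first. Hmox2 at 35.3%, Akr1c6 at 30.4%, Ezr at 28.3%, Gm14548 at 26.9%, Akr1c14 at 26.7%, Sdhaf3 at 26.2% and the vomeronasal receptor gene Vmn1r65 at 24.6% followed. Of the 748 protein-coding genes without a domain, 70 (9.36%) lay within 5 kb of one, and the median distance was 48.3 kb.

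The Akr1c genes of chromosome 13, which encode hydroxysteroid and prostaglandin reductases, lie among domains. From the start of Akr1c14 to the end of Akr1c21 (chr13:4048991-4586543), 21 domains covered 25.6% of 537.6 kb. Of the 8 genes, 4 met a domain, against 13.9% of all autosomal protein-coding genes. Akr1c6 and Akr1c14 had 30.4% and 26.7% of their bodies covered, Akr1c20 had 3.29% and Akr1c18 had 0.832%. Akr1c21 lay 0.574 kb from a domain, Akr1c13 2.567 kb, Akr1c19 9.052 kb and Akr1c12 14.951 kb. The gap between Akr1c12 and Akr1c6 held the 29.7 kb domain described above.

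**Figure D5:**
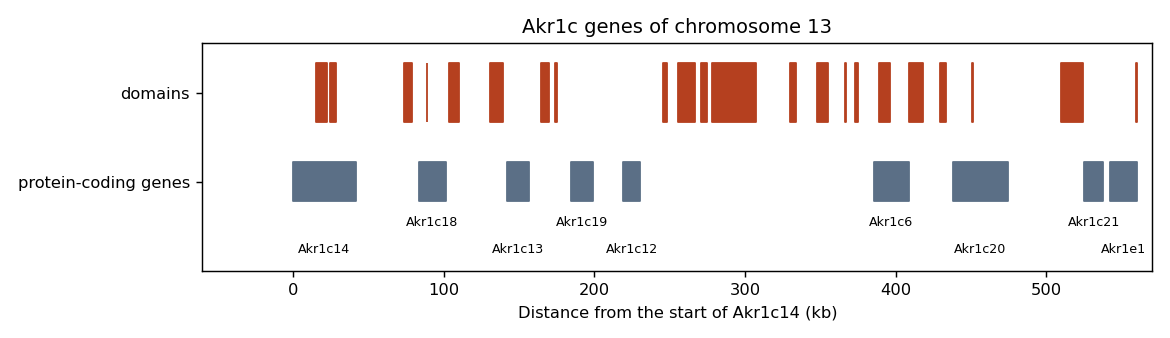
H4K20me3 domains (red) and protein-coding genes (blue) over the Akr1c genes of chromosome 13, drawn to scale in kb from the start of Akr1c14. The widest domain, 29.7 kb, lies in the gene-free stretch between Akr1c12 and Akr1c6, and Akr1c6 and Akr1c14 have 30.4% and 26.7% of their bodies under domains.

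The 4 listed histone and DNA methyltransferase genes met no domain, against 2 of 8 of that list in the rest of the autosomes and 13.9% of all protein-coding genes, so a count of 0 says little here. The H4K20 methyltransferase genes Kmt5c and Kmt5b lay 7.49 and 6.71 kb from the nearest one. Suv39h2, the H3K9 methyltransferase gene deleted in these cells, lay 53.5 kb away, and the DNA methyltransferase gene Dnmt3a 57.7 kb away. None of 9 ribosomal, mitochondrial ribosomal and proteasome subunit genes met a domain, against 6 of 189 in the rest and 13.9% of all protein-coding genes, with Mrpl15 the nearest at 0.9 kb, then Mrpl11 at 2.701 kb. Mrpl21, Rps20, Rpl28 and Rps9 lay 18.2 to 40.6 kb away, and Rpl37, Mrps24 and Mrpl49 83.7 to 132.1 kb away.

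Imprinted genes of the Peg10 region on chromosome 6 and the Peg3 region on chromosome 7 met a domain in 4 of 14 cases (28.6%), against 13.9% of all autosomal protein-coding genes. Their median covered share was 0, as over all 869 genes. The calcitonin receptor gene Calcr had 12.9% of its body covered, Casd1 2.47%, Usp29 1.14% and Ppp1r9a 0.913%. Gene length was not matched in this comparison. Usp29 and Ppp1r9a are 236.7 and 262.8 kb long, and 61.4% of genes over 100 kb in the first 5 Mb met a domain. The paternally expressed genes Peg10 and Peg3 lay 137.5 and 27.0 kb from a domain.

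Of 25 zinc finger genes named by symbol, 3 met a domain (12%), near the 13.9% of all protein-coding genes and against 66 of 390 in the rest. They were Zfp773 with 15.2% of its body covered, Zfp804b with 6.0% and Zfp438 with 2.28%. Among olfactory and vomeronasal receptor genes, 2 of 33 did (6.06%), against 78 of 1415 in the rest and 13.9% of all protein-coding genes. These were Vmn1r65 and Vmn1r63 at 24.6% and 24.5%. In the leukocyte receptor complex of chromosome 7, 2 of 13 genes did (15.4%), near the 13.9% of all protein-coding genes, and they were Lair1 at 23.5% and Tarm1 at 2.47%. Of the 3 Nlrp genes, which encode innate immune and oocyte proteins, 2 met a domain, against 8 of 15 in the rest and 13.9% of all protein-coding genes. Nlrp4c had 7.50% and Nlrp12 2.41% of the body covered, and Nlrp2 lay 14.9 kb from a domain. Of 3 terminal complement genes, 2 met a domain, against the same 13.9%. C7 and C6 had 13.6% and 9.74% covered, and C9, farther along chromosome 15, lay 166.1 kb from a domain. Of 10 matrix metalloproteinase genes of chromosome 9, Mmp27 alone met a domain (10%, near the 13.9% of all protein-coding genes), over 1.29% of its body. Mmp12 lay 0.039 kb from a domain, Mmp10 1.141 kb, Mmp1b 1.769 kb, Mmp20 4.282 kb and Mmp7 4.865 kb, and Mmp1a, Mmp8, Mmp3 and Mmp13 13.2 to 24.5 kb. The median covered share of these lists was 0, except for the Nlrp genes (2.41%), the Akr1c genes (0.416%) and the complement genes (9.74%).

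Taking the longest domain-free stretch of each chromosome, the 5 longest were those of chromosomes 14, 17, 19, 10 and 16. On chromosome 17, 952.4 kb (chr17:5782051-6734400) held 12 protein-coding genes, among them the sorting nexin gene Snx9, the phosphoinositide phosphatase gene Synj2, Serac1, the transcription factor IIH subunit gene Gtf2h5, and Tulp4. On chromosome 19, 900.6 kb held 42 protein-coding genes, among them Gstp3, Cabp2, Cdk2ap2 and Pitpnm1. On chromosome 10, 731.85 kb held 6, among them Plekhg1, Mthfd1l, Akap12, Zbtb2 and Rmnd1. On chromosome 16, 653.1 kb (chr16:5739901-6393000) held no protein-coding gene wholly inside. From 5884793 on, that stretch lies in the body of Rbfox1 (chr16:5884793-7412480), which runs on past its end.

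Chromosome 14 was the extreme case, with no domain over its first 2886 kb (chr14:3000001-5886150), which hold 44 protein-coding genes such as Gm2888, Gm2897, Gm10340, Gm5795 and D830030K20Rik. Its 9 domains measured 0.9 to 9 kb, and 1 of its 80 protein-coding genes met one. The sequence there is repeated. Of 156 promoter entries in its first 5 Mb, 145 (92.9%) shared a stretch of 50 bases with another place in the promoter table, against 72 of 1114 (6.46%) in the first 5 Mb of the other chromosomes with entries and 10.4% in the rest of chromosome 14. Reads that align to several places are handled by the aligner's settings, and those are not known here. The part of repeated sequence in the low domain count was not tested.

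Just outside the rule lie 4 domains that begin at the first base of chromosomes 1, 5, 7 and 8 and run through the unsequenced 3 Mb. Of these, 3 end at 3000 kb and that of chromosome 7 at 3003.3 kb. Unsequenced bases take no aligned reads, so the calls over that stretch show no measured H4K20me3. The first 5 Mb of these 4 chromosomes had 10.1 to 13.4% of bases in domains. The other 15 chromosomes had 0.447 to 14.6%, with a median of 5.01% and 4 of them above 10%. The last domains inside the rule are the 2 that cross the 8 Mb boundary, on chromosomes 1 and 3.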

How the data were processed

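H4K20me3 was immunoprecipitated with 3 μg of antibody from 24 μg of mouse chromatin, to which Drosophila chromatin (1.5 μg) had been added, per the labels' protocols, in 12 libraries. Bowtie2 2.3.4.1, SAMtools 1.1, deepTools and bedtools, with builds mm10, dm6, mm9 and GRCm38, are named per the submitters' processing notes, without their roles. The authors called the domains with RSEG, per the file name. The deposited file holds positions alone (chromosome, start and end), with no count, signal or score, so depth and its precision are unknown, the sample groups entered no test, and the planned comparison of times was not run.

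Genes, starts and microRNAs came from RefSeq tables of GRCm38.p6, which is mm10. Genes that start before 3 Mb were left out, and a chromosome ended at its last gene or domain. Bases were counted with domains clipped at 3 and 8 Mb. No genome was used, so the sequence of domains was not read. A gene met a domain when they shared at least 1 base. Differences between the first 5 Mb and the rest were tested over 19 chromosomes by all sign changes, two-sided, with Benjamini-Hochberg adjustment, in Python 3.11.15 with numpy 2.4.6, pandas 2.3.3 and scipy 1.17.1. The code of the test was run on simulated independent, normally distributed differences. That run checked the code and not how well the test suits these chromosomes.

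The regions and lists were chosen with earlier results of these data known. Genes named in the text are those at the widest domain of each chromosome, the 10 with the most covered bases and the 10 with the largest covered share. They also include up to 5 in each of the 5 longest domain-free stretches, members of gene lists, and up to 8 protein-coding genes with a start in a domain. Genes named with 1 Mb bins, runs and microRNAs were chosen after their values were seen. An eleventh list, the alpha-takusan genes of chromosome 14, matched no gene of the table. Alternatives were the extent of the window, its comparison, minimum width, joining, the gene rule and leaving out each chromosome. The adjusted p of an alternative was computed for 1 measure at a time, together with the main p-values of the other measures.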

Additional observations from a re-analysis of the deposited data

How the results depend on the processing

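No paired analysis was possible because the list names no sample or replicate, and the pairs of the tests are parts of 1 chromosome. Leaving out each of the 19 chromosomes in turn gave differences (first 5 Mb minus rest) of 3.18 to 3.99 percentage points for coverage, 5.27 to 6.85 per Mb for domain density, 0.1875 to 0.3125 kb for median width, 5.25 to 7.46 percentage points for the share of protein-coding genes that met a domain, and -0.880 to 0.888 genes per Mb for gene density. Coverage and domain density stayed past the threshold in all of these, with adjusted p of 0.00374 to 0.0131 and 0.00580 to 0.0261. Each of these was adjusted with the main p-values of the other measures, not with those of the same omission. The largest unadjusted p was 0.00464 for coverage and 0.0104 for density (exact paired permutation test). The width difference passed the threshold only without chromosome 14, and the gene density difference turned negative without chromosome 19 (-0.880).

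Against 8 to 13 Mb in place of the whole rest, the differences were 1.46 points for coverage, 1.79 per Mb for density, -0.0158 kb for width, -10.4 points for genes and 3.34 per Mb for gene density. The last 2 passed the threshold (exact paired permutation test, p = 0.0140 and 0.00550, adjusted p = 0.0234 and 0.00917), and the others did not. The gene share was then lower in the first 5 Mb and gene density higher. These too were adjusted with the main p-values of the other measures. Against the last 5 Mb of the chromosome, the width difference was 0.399 kb (exact paired permutation test, p = 0.0312, adjusted p = 0.0390). Its adjusted p takes the main p-values of the other measures, so that call rests on this way of adjusting. The gene share was 2.67 points and did not pass, and gene density was -2.43 per Mb. With a window of 3 to 13 Mb, the width difference was 0.355 kb and passed, and gene density was -1.15 per Mb. The gene share difference was 5.92 points with 3 to 6 Mb, 5.51 points with domains of at least 1.5 kb and -0.355 points with at least 50% of the body covered. Inside gene bodies the coverage difference was 0.562 points. The cause of these changes was not tested.

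Outside the chromosome omissions, the other 19 alternatives kept direction and call. The limits are that 1 list without signal gives no error for any domain, depth or strength, and that the start table is incomplete. In the first 5 Mb it has no entry on chromosome 18, 6 on each of chromosomes 1 and 3, and 13 on chromosome 4.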

Other observations

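Beyond the first 5 Mb, the highest mean coverage of the first 20 Mb of assembled sequence stood in the bin from 18 to 19 Mb, at 9.08% (SD 6.84, n = 19 chromosomes), against 4.02% for the rest of the chromosomes as a whole. The fullest 5 Mb window other than the first was that from 18 to 23 Mb on 6 chromosomes, which were 2, 12, 13, 15, 17 and 18. It held 20.6% on chromosome 12 and 12.4% on chromosome 17, where the first 5 Mb held 4.81% and 2.14%. This bin was picked for its value, is given as a description and was not tested.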
